A study of Mus musculus with 8 samples.

Results

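The collagen genes of the ventricle were examined in mouse hearts at embryonic day 10.5 (E10.5) that lacked Pkn2 in cardiomyocytes and in control hearts. Members were all count-table symbols of the form Col, a type number, a and a chain number, with a total of at least 8 counts over the 8 libraries. Of 44 such symbols 42 qualified, out of 26820 genes of the whole table that met the same total. Col19a1 and Col6a4 had fewer counts and were not tested. The 42 were divided into 9 fibrillar genes (types I, II, III, V and XI), 6 basement membrane genes (type IV) and 27 genes of other types. The 27 include Col24a1 and Col27a1, which are fibrillar by sequence but lie outside the types counted as fibrillar here.

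Conditional knockout (cKO) embryos carried homozygous floxed Pkn2 (Pkn2 fl/fl) and XMLC2-Cre. Control embryos were littermates with the same Pkn2 fl/fl alleles and no Cre, and the strain was recorded as C57BL/6, on a C57BL/6N background. The floxed allele holds loxP sites around an exon of Pkn2, so the gene was intact in controls and could recombine where the Cre was active. Poly(A) RNA from ventricular tissue was sequenced in 4 libraries per genotype, each a separate biological replicate, and no treatment was given. XMLC2-Cre acts in cardiomyocytes, whereas the RNA came from all cells of the ventricle. In such bulk RNA, fewer cells of a type and less RNA per cell cannot be told apart.

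Collagens are trimeric proteins of the extracellular matrix. Fibrillar collagens assemble into cable-like fibrils, whereas type IV collagen forms the sheet-like network of basement membranes, on which endothelial and endocardial cells rest and which also surrounds cardiomyocytes. The remaining types include beaded filaments, anchoring fibrils, fibril-associated collagens, membrane-spanning collagens and the proteoglycan-like multiplexins. In the E10.5 heart, the matrix between endocardium and myocardium, the cardiac jelly, and the cushion mesenchyme that will form valves are rich in matrix gene products.

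Libraries held 47559845 to 56660938 counts. Pkn2 itself measured 83.1, 77.6, 79.6 and 84.3 CPM (read counts of a gene relative to a library size that is adjusted by the trimmed mean of M values, TMM) in cKO replicates 1 to 4, and 133, 139, 152 and 153 CPM in controls 1 to 4. All cKO libraries lay below all control libraries, with a log2 fold change of −0.83 ± 0.060 (SE; edgeR adjusted p = 7.672e-06). All 14 markers of cardiomyocytes, the main cells of the labelled tissue, were measured, and their summed level was 42980 to 46240 CPM in cKO and 43060 to 47620 CPM in controls. Control replicate 1 stood apart for hepatic and yolk sac endoderm genes, at a summed 57.06 CPM against 19.07 to 26.88 in the other 7 libraries. Endothelial genes were highest in cKO replicates 4 and 1.

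Few collagen genes passed the test of cKO against control hearts. At an adjusted p of at most 0.05 (edgeR quasi-likelihood test, Benjamini-Hochberg adjustment over all genes tested), 2 of the 42 were called, Col4a4 and Col13a1, and both were lower in cKO hearts. Over all 26820 genes, 0.858% were called in either direction and 0.343% were called lower. With a fold change of at least 1.5 in addition, 1 collagen gene passed, Col4a4, where 0.365% of all genes did. At an unadjusted p under 0.05 there were 13 collagen genes, 7 higher and 6 lower, and 12.8% of all genes. The 4 cKO and 4 control values did not overlap for 6 collagen genes, 3 higher (Col25a1, Col7a1 and Col10a1) and 3 lower (Col4a4, Col13a1 and Col17a1), while 6.91% of all genes did not overlap. Both shares, and the share of genes called, were larger among better expressed genes. Of 14302 genes with a mean of at least 1 CPM, 577 lay higher and 848 lower without overlap. An unadjusted p under 0.05 was found for 2615 of them, and 132 were called higher and 90 lower. That mean was reached by 34 of the 42 collagen genes. The median log2 fold change of the 42 was 0.05, against −0.00085 over all genes, with 22 values above 0 and 20 below. The count of calls depended on the method. DESeq2 called 6 of the 42, and edgeR with no filter on low counts added Col26a1, Col4a1 and Col4a2 to the 2. Both also called more genes over the whole table. On the deposited TPM values, limma on log2(TPM + 1) or log2(TPM + 0.1) called no collagen gene and 2 or 5 genes in all. Its adjusted p-values were 0.196 and 0.214 for Col4a4 and 0.238 and 0.245 for Col13a1.

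**Figure D1:**
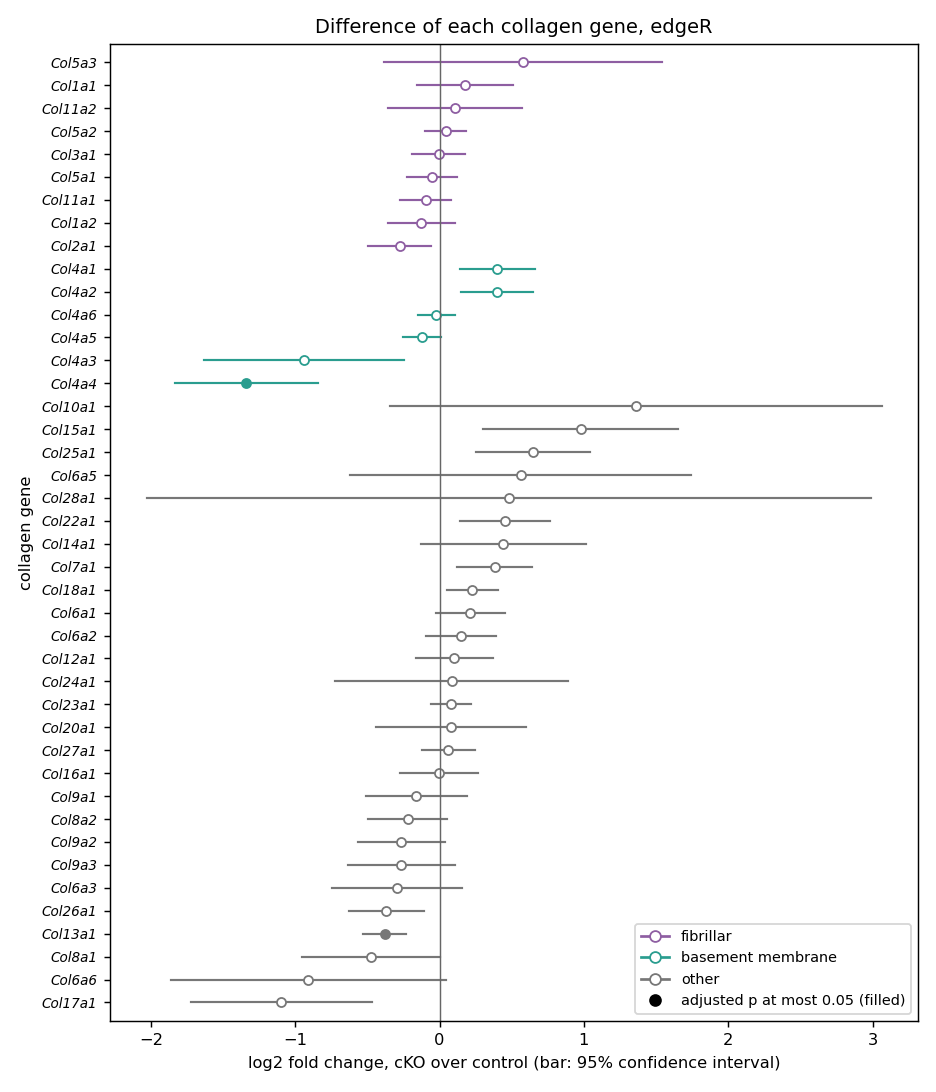
Log2 fold change (cKO over control, horizontal axis) of each of the 42 collagen genes, grouped by class, with its 95% confidence interval as a bar. Filled points mark Col4a4 (−1.34) and Col13a1 (−0.38), which had an adjusted p of at most 0.05, and all fibrillar genes have open points.

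Levels of different genes were compared in TPM, transcript abundances that are scaled by gene length and by library. The basement membrane chain Col4a1 was the most abundant collagen transcript at a mean of 375 TPM over the 8 libraries. Col18a1, which encodes a basement membrane proteoglycan that also yields the fragment endostatin, followed at 288 TPM, and Col4a2 at 223 TPM. These 3 genes held 56.1% of the summed collagen TPM. The next were fibrillar, with Col3a1 at a mean of 139.5 TPM and Col2a1 at 116 TPM. In the individual libraries Col4a1 spanned 261 to 529 TPM and Col18a1 219 to 341 TPM, so their ranges overlapped, whereas Col3a1 (117 to 164 TPM) lay below every Col18a1 value. Among all 42 genes, 16 had a mean of at least 10 TPM, 12 had 1 to 10 TPM and 14 had less than 1 TPM.

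**Figure D2:**
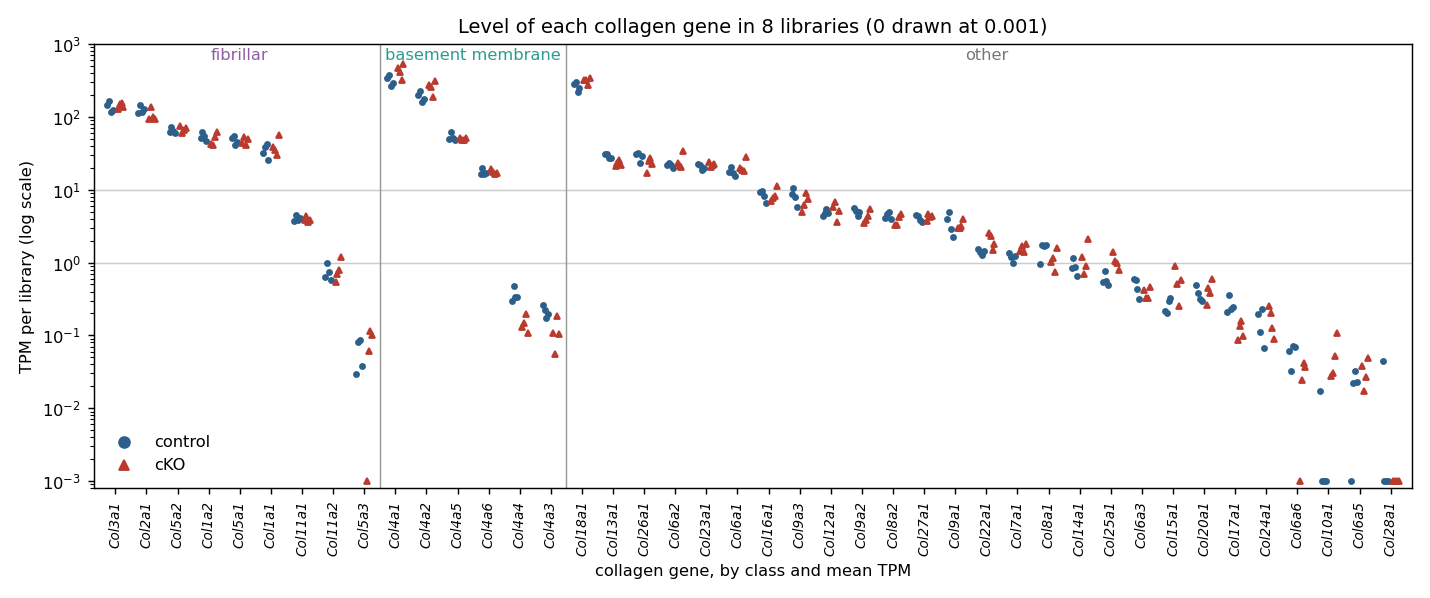
TPM of each collagen gene in each library on a log axis, with control libraries as circles and cKO libraries as triangles, ordered by class and mean level. Col4a1 (mean 375 TPM), Col18a1 (288 TPM) and Col4a2 (223 TPM) stand at the top, and 14 genes have a mean under 1 TPM.

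The classes differed in how they divided the summed collagen TPM. Fibrillar genes made up 25.01%, 28.5%, 30.9% and 24.9% of it in cKO replicates 1 to 4, and 30.3%, 31.6%, 33.7% and 32.0% in controls 1 to 4. Only cKO replicate 3 reached the range of the controls. Type IV genes made up 47.5%, 43.7%, 39.2% and 47.8% in cKO and 39.9%, 40.2%, 37.7% and 39.0% in controls, so cKO replicates 1, 2 and 4 lay above all controls and replicate 3 among them. The other types made up 27.4% to 29.9% in cKO and 28.2% to 29.8% in controls. As a sum of levels rather than a share, fibrillar TPM was 456 ± 26.6 in cKO and 469 ± 48.7 in controls (SD, n = 4 each), and the groups overlapped. These sums are dominated by the abundant genes and carry no test here.

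**Figure D3:**
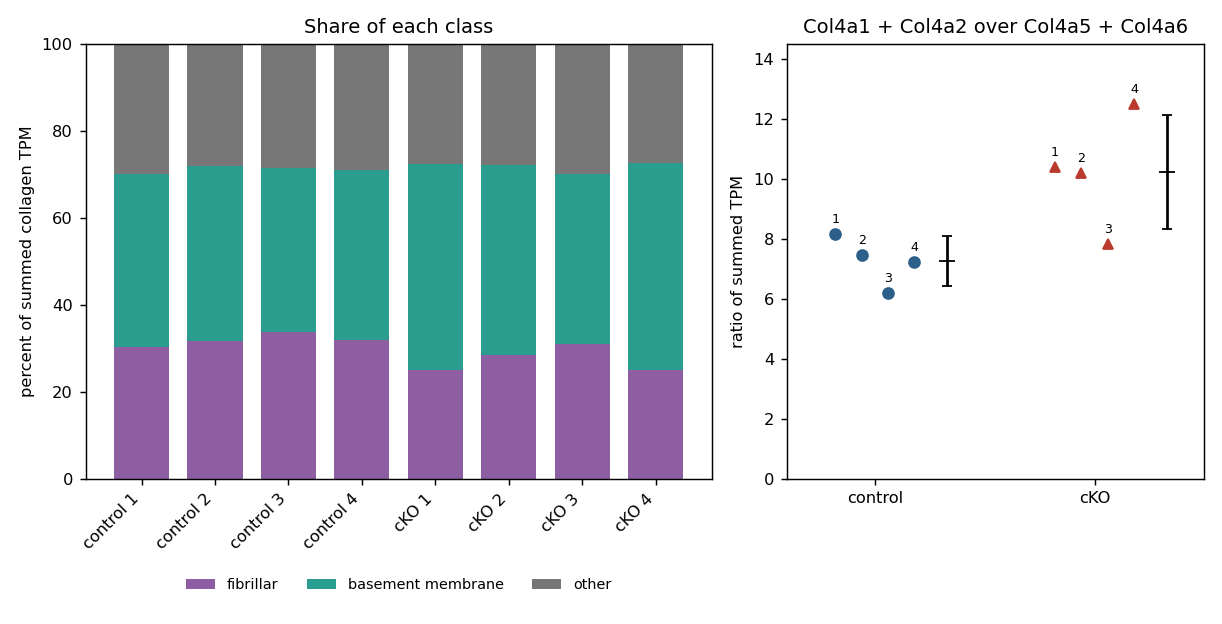
Left, percent of the summed collagen TPM held by each class in each library. Right, ratio of the summed TPM of Col4a1 and Col4a2 to that of Col4a5 and Col4a6 in each library (numbered points, with mean and SD as bars), which was 7.84 to 12.5 in cKO and 6.19 to 8.17 in controls, so that cKO replicate 3 overlaps the controls.

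Type IV collagen is built from 6 chains, whose genes lie in head-to-head pairs on 3 chromosomes. Col4a1 and Col4a2 encode the network found in nearly all basement membranes. Col4a3, Col4a4 and Col4a5 together form the network known from the kidney glomerulus, and Col4a5 and Col4a6 one known from smooth muscle. In positions of mouse build GRCm38, Col4a4 (chr1:82448423-82586849, minus strand) and Col4a3 (chr1:82586976-82722059, plus strand) start 126 bases apart, while the annotated starts of Col4a1 (chr8:11198423-11312826, minus strand) and Col4a2 (chr8:11312805-11449287, plus strand) overlap by 22 bases. Col4a5 and Col4a6 start 1308 bases apart on the X chromosome. The 3 pairs are described in turn.

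The Col4a3 and Col4a4 pair was weakly expressed. Col4a4 measured 0.695, 0.873, 1.16 and 0.607 CPM in cKO replicates 1 to 4 and 1.83, 2.63, 1.94 and 2.02 CPM in controls 1 to 4, from 34 to 56 counts per cKO library and 99 to 127 per control library. Every cKO library lay below every control library. Col4a4 fell by 1.34 on the log2 scale (SE 0.23, 95% interval −1.84 to −0.84, edgeR adjusted p = 0.0131), to 39.6% of the control mean. Its level was 0.145 TPM in cKO and 0.359 TPM in controls. The call was lost without cKO replicate 1, where the log2 fold change was −1.26 and the edgeR adjusted p was 0.0566, and it stood in the other 7 fits that left out a library.

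Its neighbour Col4a3 measured 0.496, 0.270, 0.912 and 0.446 CPM in cKO and 1.275, 1.04, 0.760 and 1.002 CPM in controls. Of the cKO libraries 3 lay below all controls, and replicate 3 lay within the control range. The log2 fold change was −0.94 ± 0.33 (SE) and did not pass the test (edgeR adjusted p = 0.2101), with an interval of −1.63 to −0.25. Over the 8 fits that left out a library it was −1.32 to −0.71. Col4a3 was called in 1 of them, the fit without cKO replicate 3 (edgeR adjusted p = 0.0351). Col4a3 had 13 to 69 counts per library, and the part of counting error in its spread was not tested.

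Both abundant type IV genes had higher means in cKO hearts but did not pass the test. Col4a1 measured 1623, 1456, 1142 and 1855 CPM in cKO and 1251, 1319, 951 and 1086 CPM in controls. Col4a2 measured 914, 857, 649 and 1059 CPM in cKO and 708, 750, 561 and 625 CPM in controls. For both genes cKO replicates 4, 1 and 2 lay above all controls in that order, and replicate 3 lay among the controls. The log2 fold change of Col4a1 was 0.40 ± 0.12 (SE, 95% interval 0.14 to 0.66, edgeR adjusted p = 0.1427). That of Col4a2 was 0.40 ± 0.12 (SE, 95% interval 0.15 to 0.65, edgeR adjusted p = 0.1301). Over the 8 fits that left out a library they were 0.30 to 0.52 and 0.29 to 0.51, and each gene was called in 1 fit. That fit left out cKO replicate 3, the cKO library among the controls (edgeR adjusted p = 0.016 and 0.00961). With no filter on low counts the edgeR adjusted p-values were 0.00732 and 0.00585. The ratio of Col4a1 to Col4a2 in TPM was 1.63 to 1.71 over all 8 libraries, so the pair kept nearly the same proportion whatever the level. An antisense gene, Gm15418, at a mean of 4.81 TPM lies across 6081 bases of Col4a1, and since no strand setting of the counting is given, reads of the 2 strands cannot be told apart there.

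The X-linked pair did not pass the test either. Col4a5 measured 178, 166, 168 and 175 CPM in cKO and 179, 209, 185 and 174 CPM in controls, with a log2 fold change of −0.12 (95% interval −0.25 to 0.01, edgeR adjusted p = 0.445). Col4a6 measured 69.4, 62.2, 61.8 and 61.1 CPM in cKO and 62.1, 69.9, 61.4 and 64.9 CPM in controls, with a log2 fold change of −0.02 (95% interval −0.15 to 0.11, edgeR adjusted p = 0.94). Their groups overlapped throughout. The TPM ratio of Col4a1 plus Col4a2 to Col4a5 plus Col4a6 was 10.4, 10.2, 7.84 and 12.5 in cKO and 8.17, 7.46, 6.19 and 7.22 in controls. Only cKO replicate 3 lay within the control range. Over the 6 type IV genes, 2 were higher and 4 lower, with a median log2 fold change of −0.07, where that over all genes was −0.00085.

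**Figure D4:**
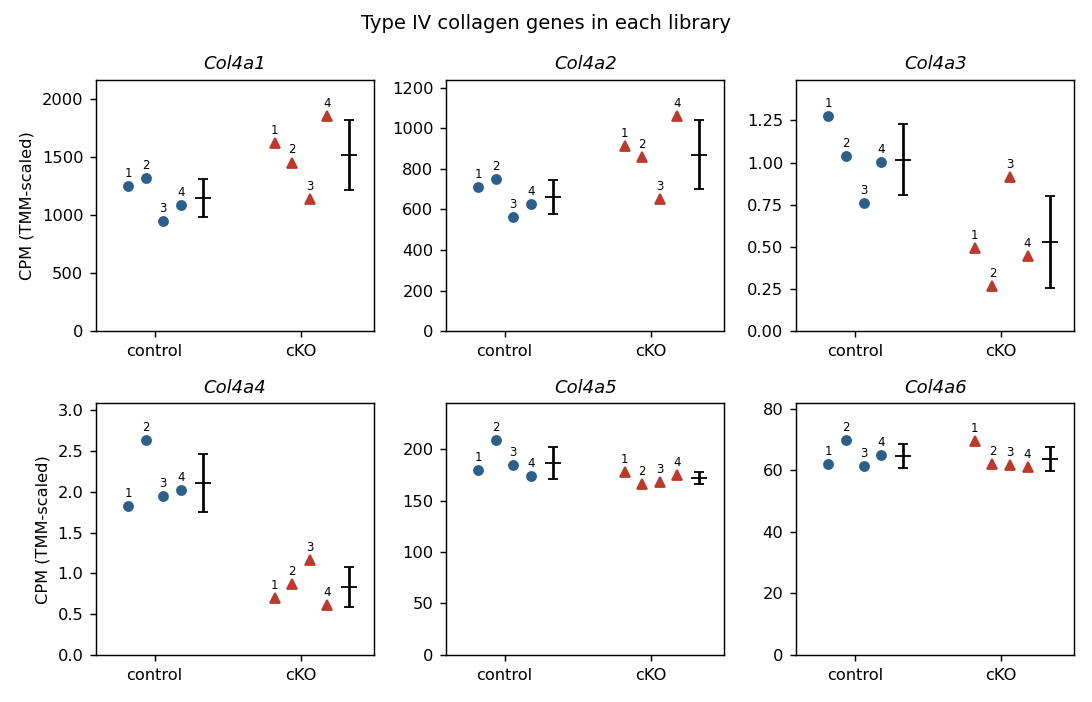
CPM of the 6 type IV genes in each library (vertical axes start at 0, numbers give the replicate, bars the mean and SD of 4 libraries). Col4a4 does not overlap between the groups, cKO replicate 3 lies among the controls for Col4a1 and Col4a2, and Col4a5 and Col4a6 overlap.

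Endothelial and endocardial cells, which are not targets of the Cre, rest on a type IV network, so their markers are given beside these genes. All 20 endothelial and endocardial markers were higher in cKO, in a list chosen with earlier results of these data known. The edgeR test was passed by 8 of them, where 0.858% of all genes were called in either direction. None of the 20 markers was at 0 in any library, and their log2 fold changes had a median of 0.39. Their summed level was 2585, 2170, 2156 and 2739 CPM in cKO replicates 1 to 4 and 2007, 1953, 1701 and 1928 CPM in controls 1 to 4. The cKO libraries with the most Col4a1, replicates 4 and 1, were also those with the highest endothelial sum, and control replicate 3 was lowest of all for Col4a1, Col4a2 and the endothelial sum. Among the cKO libraries, replicate 3 was lowest for Col4a1, Col4a2 and the endothelial sum, but these differed in where it stood against the controls. Its endothelial sum, 2156 CPM, lay above all controls, while its Col4a1 (1142 CPM) and Col4a2 (649 CPM) lay among the controls. Macrophage markers were higher for 12 of 12 genes, with 2 called, at a summed 14.3 to 46.6 CPM in cKO and 8.13 to 15.04 CPM in controls. Of these only Tyrobp was at 0 in a library, control replicate 4. The part of these cells in the type IV values was not tested.

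Among the fibrillar genes none was called, with 4 higher, 5 lower and a median log2 fold change of −0.0048. Their changes ran from −0.28 for Col2a1 to 0.58 for Col5a3, a gene with a mean of 0.0643 TPM. Col2a1 encodes the chain of type II collagen, known from cartilage and also made in developing heart cushions. It measured 255, 373, 279 and 259 CPM in cKO and 324, 386, 325 and 376 CPM in controls, and 3 of 4 cKO libraries lay below all controls. Its log2 fold change was −0.28 ± 0.10 (SE, 95% interval −0.49 to −0.06, edgeR adjusted p = 0.2525). Over the 8 fits that left out a library it was −0.41 to −0.21, and Col2a1 was called in 1 of them. That fit left out cKO replicate 2, the cKO library that lay highest (edgeR adjusted p = 0.0185). The 12 cartilage markers other than collagens had 5 higher and 7 lower and none called.

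Type III collagen, a homotrimer of elastic tissues encoded by Col3a1, differed least of the fibrillar genes. It measured 366, 428, 454 and 392 CPM in cKO and 438, 471, 352.5 and 384 CPM in controls, a log2 fold change of −0.0048 with a 95% interval of −0.19 to 0.18 (edgeR adjusted p = 0.9944). Col5a2, which lies 24614 bases from Col3a1 on chromosome 1 and encodes a chain of type V collagen that nucleates fibrils, measured 267, 213, 242 and 246 CPM in cKO and 228, 252, 233 and 225 CPM in controls. Its log2 fold change was 0.04 (95% interval −0.10 to 0.19, edgeR adjusted p = 0.8667). Its partner Col5a1 had a log2 fold change of −0.05 (95% interval −0.23 to 0.12). The groups overlapped for these 3 genes, and the farthest end of their intervals was −0.23.

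Type I collagen, the main collagen of scar and bone, is made of chains from Col1a1 and Col1a2. Col1a2 measured 122, 119, 154 and 182 CPM in cKO and 156, 173, 161 and 140 CPM in controls, and its log2 fold change was −0.13 (95% interval −0.36 to 0.11, edgeR adjusted p = 0.7299). Col1a1, chosen after its values were seen as the partner chain, had a log2 fold change of 0.18 (95% interval −0.16 to 0.51, edgeR adjusted p = 0.735). Its highest value, 182 CPM, was in cKO replicate 4, and without that library its log2 fold change was −0.03. The TPM ratio of Col1a1 to Col1a2 was 0.571 to 0.910 in cKO and 0.562 to 0.791 in controls, a wider spread than that of the type IV pair.

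The 27 genes of other types had 16 higher and 11 lower values, a median log2 fold change of 0.08 and 1 call. That call was Col13a1 (chr10:61838236-61979108, minus strand), which encodes a membrane-spanning collagen found at cell adhesion sites and neuromuscular junctions. It measured 33.4, 37.5, 40.1 and 35.1 CPM in cKO and 51.1, 49.4, 44.4 and 45.2 CPM in controls. All cKO values lay below all control values, the nearest being 40.1 and 44.4 CPM. Col13a1 fell by 0.38 on the log2 scale (SE 0.071, 95% interval −0.53 to −0.23, edgeR adjusted p = 0.01865), to 76.9% of the control mean. At a mean of 25.9 TPM it ranked 11 of the 42 genes. In the fits without cKO replicate 1 or without control replicate 1, 2 or 4 the edgeR adjusted p was 0.0508 to 0.0921, with log2 fold changes of −0.40 to −0.33.

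Since Col13a1 was called, the stretch before its outermost RefSeq start (chr10:61979207-61979358, minus strand, GRCm38.p6, from RefSeq) is shown 5′ to 3′. Capitals mark a match to TATAAA, the letters of a TATA box.

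Col13a1 upstream: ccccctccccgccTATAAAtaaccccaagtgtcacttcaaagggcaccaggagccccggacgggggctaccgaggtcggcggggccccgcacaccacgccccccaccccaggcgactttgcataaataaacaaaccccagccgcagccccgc

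The match lies 133 bases before that start. RefSeq windows of 300 bases (250 before to 50 after a gene's start) were at hand for 33 of the 42 collagen genes, and were searched on both strands for TATAAA, for CCAAT and for GGGCGG, the core of a GC box. TATAAA stood in 5 of the 33 (Col3a1, Col10a1, Col11a2, Col13a1 and Col17a1) and in 14.2% of all 27025 windows. GGGCGG stood in 21 of 33 and in 35.9% of all windows, and CCAAT in 11 of 33 and in 37.9%. Of the type IV genes with a window, Col4a1, Col4a2, Col4a5 and Col4a6 held GGGCGG and Col4a4 held none of the 3 motifs. The 22 bases shared by the starts of Col4a1 and Col4a2 contained a GGGCGG, and the 126 bases between Col4a3 and Col4a4 held none of the motifs. Such matches describe the letters only.

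Other membrane-spanning collagens did not pass the test. Col25a1, whose product is known from developing motor neurons and muscle and from amyloid plaques, measured 4.25, 2.89, 3.55 and 2.59 CPM in cKO and 1.89, 2.49, 2.12 and 1.98 CPM in controls. All cKO values lay above all control values, with a log2 fold change of 0.65 ± 0.19 (SE, 95% interval 0.25 to 1.04, edgeR adjusted p = 0.1193). Col17a1, a hemidesmosome collagen of epithelia, had a mean of 0.191 TPM and was chosen after its values were seen. It measured 0.298, 0.478, 0.518 and 0.286 CPM in cKO and 0.795, 1.08, 0.742 and 0.761 CPM in controls, without overlap and with a log2 fold change of −1.10 ± 0.30 (SE, edgeR adjusted p = 0.0989). The fourth gene of the kind, Col23a1, had a log2 fold change of 0.08 (95% interval −0.06 to 0.22).

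Col7a1, which encodes the anchoring fibril that ties epithelial basement membranes to the matrix beneath, measured 7.40, 8.89, 7.53 and 9.23 CPM in cKO and 7.19, 6.12, 5.55 and 6.53 CPM in controls. The groups did not overlap, although cKO replicate 1 and control replicate 1 lay close together. Its log2 fold change was 0.38 ± 0.12 (SE, 95% interval 0.12 to 0.64, edgeR adjusted p = 0.1646). The third gene with higher values and no overlap, Col10a1, had a mean of 0.0294 TPM, too low to describe further. Col25a1 and Col7a1 were both past an adjusted p of 0.05 with DESeq2, at 0.0248 and 0.0362.

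The multiplexin genes, both linked to basement membranes, had higher means in cKO. Col18a1 measured 858, 842, 754 and 911 CPM in cKO and 787, 786, 604 and 695 CPM in controls, with cKO replicates 4, 1 and 2 above all controls. Its log2 fold change was 0.23 ± 0.082 (SE, 95% interval 0.05 to 0.40, edgeR adjusted p = 0.2308). Col15a1, chosen after its values were seen, measured 2.50, 1.45, 0.726 and 1.55 CPM in cKO and 0.739, 0.539, 0.901 and 0.982 CPM in controls, a log2 fold change of 0.98 ± 0.32 (SE, edgeR adjusted p = 0.1726). Again cKO replicate 3 was the library that overlapped the controls. Over the 8 fits that left out a library the log2 fold change of Col15a1 was 0.66 to 1.21. Col15a1 passed in 1 of them, the fit without cKO replicate 3 (edgeR adjusted p = 0.0277).

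Col26a1, an EMI-domain collagen of which little is known, was lower on average. It measured 25.6, 37.1, 42.4 and 33.8 CPM in cKO and 48.3, 47.8, 36.6 and 46.5 CPM in controls, a log2 fold change of −0.37 ± 0.12 (SE, 95% interval −0.63 to −0.11, edgeR adjusted p = 0.1828). The overlap came from cKO replicates 2 and 3 and control replicate 3. The beaded-filament genes Col6a1 and Col6a2, 85161 bases apart on chromosome 10, had log2 fold changes of 0.21 (edgeR adjusted p = 0.4606) and 0.15 (edgeR adjusted p = 0.6782). Col6a1 measured 43.7, 41.0, 40.8 and 61.6 CPM in cKO and 40.4, 45.7, 39.1 and 36.2 CPM in controls. Col6a2 measured 50.4, 44.5, 45.01 and 71.7 CPM in cKO and 48.01, 49.6, 48.4 and 45.03 CPM in controls. Without cKO replicate 4 the log2 fold changes were 0.06 for Col6a1 and −0.03 for Col6a2. In both genes that library stood high and the other 3 cKO libraries lay in or next to the control range. Over all 42 collagen genes, cKO replicate 4 held the highest of the 8 values for 14, more than any other library.

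**Figure D5:**
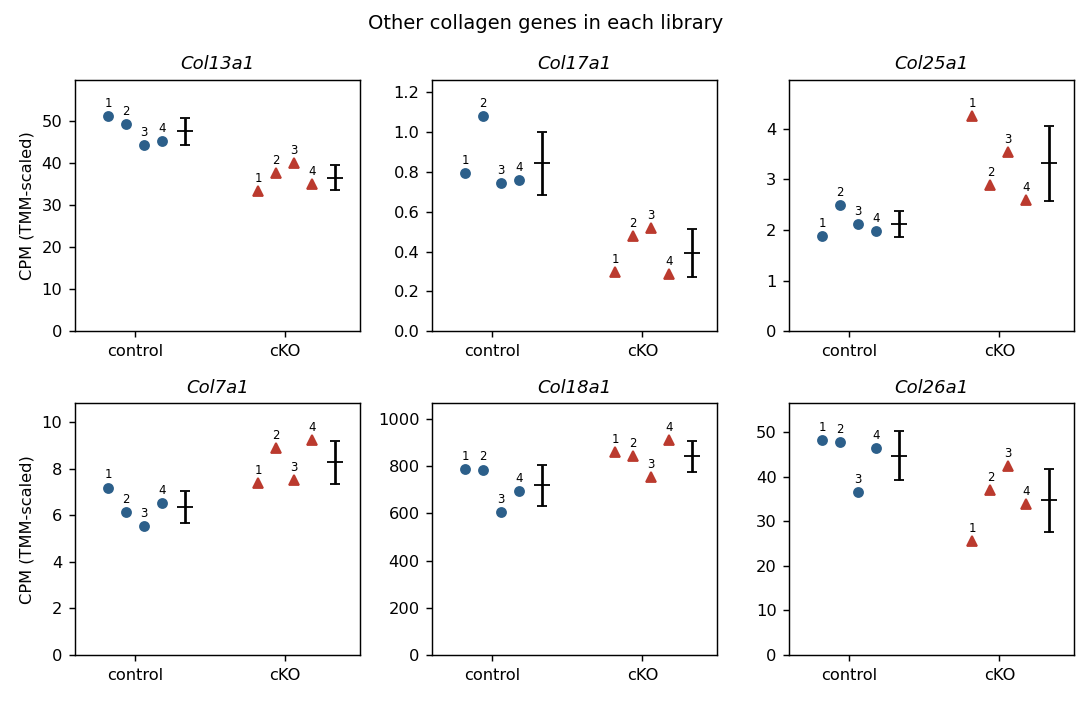
CPM of 6 collagen genes of other types in each library (vertical axes start at 0, numbers give the replicate, bars the mean and SD of 4 libraries). Col13a1 and Col17a1 lie lower and Col25a1 and Col7a1 higher in cKO without overlap, and Col18a1 and Col26a1 overlap.

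The 8 fibril-associated collagens had 4 higher and 4 lower values and log2 fold changes of −0.26 to 0.45. The largest of these was Col22a1, a collagen of tissue junctions such as that between muscle and tendon, at 0.45 ± 0.15 (SE, edgeR adjusted p = 0.1726), chosen after its values were seen. It measured 11.8, 10.6, 6.91 and 8.69 CPM in cKO and 7.76, 6.64, 6.13 and 7.19 CPM in controls, with 3 of 4 cKO libraries above all controls. The type IX genes of cartilage, Col9a1, Col9a2 and Col9a3, differed by −0.16, −0.26 and −0.26 on the log2 scale, all short of the threshold. When a library was left out, Col9a1 ranged from −0.26 to −0.0043 (without control replicate 2), Col9a2 from −0.38 to −0.17 and Col9a3 from −0.41 to −0.13 (also without control replicate 2). Of the 27 genes of other types, 10 had a mean under 1 TPM.

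Markers of further matrix-producing cells were measured beside the collagens. Of 12 cushion mesenchyme markers 7 were higher and 5 lower with 1 called higher, Vcan, where 0.858% of all genes were called. Their sum was 2315 to 2718 CPM in cKO and 1898 to 2264 CPM in controls. Vcan made up most of that sum, and without it the other 11 markers summed to 508 to 599 CPM in cKO and 531 to 624 CPM in controls, which overlapped. Most of this remainder was in turn Tbx20, at 311 to 353 CPM in cKO and 334 to 408 CPM in controls, so it says little of the others. Of 12 epicardial markers 4 were higher and 8 lower with none called, and the sum was 472 to 723 CPM in cKO and 599 to 640 CPM in controls. Smooth muscle and pericyte markers had 7 of 12 higher with none called, at 4300 to 4710 CPM in cKO and 4568 to 5329 CPM in controls. Acta2 and Des made up most of that sum. Acta2 had means of 2485 CPM in cKO and 2775 CPM in controls, and Des 1001 and 1106 CPM. Myh11 (1.64 and 1.54 CPM) and Tagln (6.39 and 8.15 CPM) added little to it. No marker of these 3 lists was at 0 in any library. The part of these cells in the collagen values was not tested.

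Genes that process, bind or break down collagen were examined from lists, with 6 of 76 past the edgeR test, 3 higher and 3 lower, where 0.858% of all genes were. Of the 22 genes for modification and folding, 13 were higher and 9 lower and none was called. Serpinh1, the collagen chaperone HSP47, measured 1082, 1232, 1225 and 1252 CPM in cKO and 1389, 1348, 1308 and 1381 CPM in controls. All cKO values lay below all controls, but the log2 fold change of −0.18 ± 0.060 (SE) did not pass (edgeR adjusted p = 0.1858). P4hb, a subunit of prolyl hydroxylase, had a log2 fold change of 0.04 (95% interval −0.09 to 0.18).

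Of 15 genes for procollagen cleavage and crosslinking, 2 were called and both fell. Tll1, a tolloid protease that trims procollagen and is required for heart septation, measured 2.44, 2.27, 2.22 and 2.16 CPM in cKO and 3.86, 4.44, 4.89 and 4.87 CPM in controls. It fell by 0.99 on the log2 scale (SE 0.15, edgeR adjusted p = 0.005126) with no overlap, and was called in all 8 fits that left out a library. Pcolce, which enhances procollagen trimming by these proteases, measured 50.6, 58.1, 56.1 and 60.2 CPM in cKO and 73.1, 75.6, 68.9 and 70.9 CPM in controls. It fell by 0.36 on the log2 scale (SE 0.062, edgeR adjusted p = 0.01248), also without overlap, and was called in 5 of those 8 fits. The crosslinking enzymes Tgm2 and Pxdn, the latter acting on type IV collagen, had log2 fold changes of 0.09 and 0.25 and did not pass (edgeR adjusted p = 0.6424 and 0.1837).

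Collagen receptors divided. Itga1, an integrin subunit that binds collagen and type IV collagen in particular, measured 196, 174.5, 133 and 169 CPM in cKO and 122, 129, 130 and 129 CPM in controls. It rose by 0.40 on the log2 scale (SE 0.087, edgeR adjusted p = 0.04216), without overlap, although cKO replicate 3 was close to the controls and the call stood in 1 of 8 fits that left out a library. It was also lost with voom (limma adjusted p = 0.0655) and with filterByExpr (edgeR adjusted p = 0.0511). Ddr1, a receptor tyrosine kinase that binds collagen, measured 184, 238, 223 and 255 CPM in cKO and 297.5, 313, 296 and 287 CPM in controls. It fell by 0.41 on the log2 scale (SE 0.080, edgeR adjusted p = 0.02491), and was called in 3 of those fits. Itgb1, the shared integrin partner, had a log2 fold change of 0.02 (95% interval −0.09 to 0.14). Of the 10 genes in the list, 6 were higher and 4 lower.

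Of the 18 fibril-associated proteoglycans and glycoproteins none was called, with 8 higher and 10 lower. Fibronectin (Fn1) measured 3203, 3198, 2486 and 3783 CPM in cKO and 2541, 2688, 1959 and 2170 CPM in controls, a log2 fold change of 0.44 ± 0.11 (SE, edgeR adjusted p = 0.08381). As for Col4a1 and Col4a2, cKO replicates 4, 1 and 2 lay above all controls and replicate 3 among them. Sparc, which binds collagen, had a log2 fold change of −0.05 (95% interval −0.18 to 0.08).

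Of the 11 collagen-cleaving proteases and inhibitors, 7 were higher and 4 lower and 2 rose. Mmp2, a gelatinase that also cleaves type IV collagen, measured 93.6, 89.4, 87.7 and 103 CPM in cKO and 80.6, 76.5, 59.6 and 63.5 CPM in controls, and rose by 0.42 on the log2 scale (SE 0.087, edgeR adjusted p = 0.03275). Mmp9, the other gelatinase, measured 1.29, 0.831, 0.415 and 1.13 CPM in cKO and 0.185, 0.207, 0.283 and 0.0401 CPM in controls, and rose by 2.33 on the log2 scale (SE 0.45, edgeR adjusted p = 0.02214) from a low level in controls. Neither overlapped between the groups, and each was called in 4 of the 8 fits that left out a library. With voom Mmp9 was no longer called (limma adjusted p = 0.0734). The membrane-anchored Mmp14 and Mmp15 had log2 fold changes of 0.13 and −0.11 and did not pass (edgeR adjusted p = 0.3894 and 0.6343).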

How the data were processed

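RNA of ventricular tissue from 4 cKO and 4 Cre-negative littermate E10.5 embryos was sequenced, and each library is 1 biological replicate, so p-values measure the spread between these embryos. Deposited by the authors were a table of unnormalized counts by gene symbol and another of TPM by gene, which they computed. Per the submitters' processing notes the tools were FastQC, Trim Galore 0.6.7, HISAT2 2.2.1, StringTie 2.2.1, featureCounts and DESeq2, on GRCm39, but gene positions in the TPM table are those of GRCm38. The strand setting of the counting is not given in the sources used here. No column was left out (0 unused).

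Counts of 26820 genes with a total of at least 8 entered edgeR 4.0.16 in R 4.3.3, whose quasi-likelihood F test was run with TMM scaling and condition as the only term, with Benjamini-Hochberg adjustment over all of them, and the code was tested on simulated data. CPM values rest on TMM library sizes, and log2 CPM adds a prior count of 2. For Pkn2 an exact two-sided permutation test on log2 CPM also gave p = 0.0286, the smallest that 4 against 4 allows. Library totals of 47559845 to 56660938 make counting error small for all but the weakest genes. Libraries of a group differed by a chi-square per degree of freedom of 11 to 35.3, so none repeats another. Same-numbered libraries were not taken as pairs, since their deviations from the group means correlated at −0.19, −0.03, 0.01 and −0.14 over 14302 genes. Such correlations cannot exclude a shared litter.

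Members and lists were chosen with earlier results of these data known. Named were Pkn2, collagen genes with an adjusted p of at most 0.05, those without overlap and a mean of at least 1 CPM, the 4 with the highest mean TPM in each class, and collagen genes within 100 kb of these. From the lists, genes past the test and the 2 with the highest CPM per list were named. Col1a1, Col5a1, Col5a3, Col9a1, Col9a2, Col9a3, Col10a1, Col15a1, Col17a1, Col22a1 and Col23a1 were added after their values were seen. Erythroid markers, 11 of 12 matched, were all higher on average in cKO with none called. Their sum overlapped, at 1393 to 4833 CPM in cKO and 1512 to 4679 CPM in controls. Of 13 hepatic and yolk sac endoderm markers 2 were higher and none was called. Alternatives were DESeq2 1.42.0, limma 3.58.1 (voom, and log2 TPM with a pseudocount of 1 or 0.1), DESeq2 size factors, other filters, hemoglobin genes left out, the length trend removed, the replicate number as a block, and each library left out.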

Additional observations from a re-analysis of the deposited data

Results flagged for a closer look

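Within the 4 libraries of a group, a value was picked out when its gap to the nearest other was too large a share of the range of the group by Dixon's test, which chance does in about 1 of 20 groups. Of 88 groups examined, 6 held such a value. Col4a6 in cKO replicate 1 was 69.4 CPM, above 61.1 to 62.2 CPM in the other cKO libraries. Col6a1 in cKO replicate 4 was 61.6 CPM, above 40.8 to 43.7 CPM in the others, and Col10a1 in the same library was 0.161 CPM, above 0.0794 to 0.0831 CPM. Col26a1 in control replicate 3 was 36.6 CPM, below 46.5 to 48.3 CPM in the other controls. Of the genes that bind or fold collagen, Itga1 in control replicate 1 was 122 CPM, below 129 to 130 CPM, and Serpinh1 in cKO replicate 1 was 1080 CPM, below 1220 to 1250 CPM.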

How the results depend on the processing

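Pkn2 was lower and past the test under all 20 alternatives, with log2 fold changes of −0.864 to −0.8. The count of 2 collagen genes called was 6 with DESeq2 (3 higher, 3 lower: Col4a4, Col13a1, Col17a1, Col25a1, Col7a1 and Col22a1), 5 with no filter on low counts (Col4a4, Col13a1, Col26a1, Col4a1 and Col4a2), 0 in each of the 3 limma fits on log2 TPM, and 0 (without cKO replicate 1) to 8 (without cKO replicate 3) when a library was left out. It stayed at 2 with voom, DESeq2 size factors, filterByExpr, hemoglobin genes left out and the length trend removed. The count past both thresholds, 1, was 3 with DESeq2, 0 with limma on TPM and 0 to 3 when a library was left out. The 230 genes called over the whole table became 867 with DESeq2, 878 with no filter, 2, 5 and 35 with limma on TPM (pseudocounts of 1 and 0.1, and a mean of at least 1 TPM), and 67 to 744 when a library was left out. The 6 called genes of the collagen lists became 10 with DESeq2, 15 with no filter, 9 with the replicate block, 4 with voom (Itga1 and Mmp9 lost), 5 with filterByExpr (Itga1 lost), 0 with each limma fit on TPM, and 1 to 10 when a library was left out. With the replicate block 4 collagen genes were called (Col4a1 and Col4a2 were added, edgeR adjusted p = 0.0253 and 0.0255) of 380 genes in all, and with the replicate block and the length trend removed 4 of 390. Whether same-numbered libraries share a litter is not given by the sample titles and remains unknown.

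The median log2 fold change of the type IV genes was 0.215 with limma on genes with a mean of at least 1 TPM, since Col4a3 and Col4a4 are not among them. Some genes near 0 changed sign. Col3a1 was 0.000948 with DESeq2, 4.86e-05 with voom, 0.000954 with DESeq2 size factors, 0.00494 with filterByExpr, 0.0017 with no filter, 0.0383, 0.0386 and 0.0383 with limma on TPM, and −0.0719 to 0.0765 when a library was left out. Col4a6 was 0.0147, 0.0155 and 0.0147 with limma on TPM and −0.06 to 0.0294 when a library was left out. In the latter fits Col5a2 was −0.000571 to 0.108, Col1a1 −0.0304 to 0.292 and Col6a2 −0.0265 to 0.231. Of 851 gene values under an alternative, 753 kept direction and side of the threshold, 53 were no longer called, 25 were newly called and 20 changed sign. The cause of these shifts was not tested.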
